A study of Mus musculus with 8 samples.

Results

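The apolipoprotein L (Apol) genes form a tandem family on mouse chromosome 15, the chromosome that also carries Atf4. Transcripts of 10 of them, Apol6, Apol7a, Apol7c, Apol8, Apol9a, Apol9b, Apol10a, Apol10b, Apol11a and Apol11b, were read in lungs of 4 Atf4wt/wt mice (wild-type, WT) and 4 Atf4D/D mice (knockout, KO), with 1 Clariom D array per lung. All 10 genes had 1 transcript cluster (a set of probes along a gene) with a single gene symbol, out of 30176 genes and 65956 clusters on the array. The family was singled out because Apol11b stood out in this same comparison of genotypes, so its difference is described here without a test, and the other 9 genes were taken by name.

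In both groups the mice, of C57BL/6 background, carried a tamoxifen-activated Cre recombinase at the ubiquitous Rosa26 locus (Rosa26::CreERT2) and received tamoxifen, and lungs were taken 4 weeks later from animals aged 13 weeks, 3 males and 1 female per genotype. Only the KO mice had loxP-flanked Atf4 alleles. Excision by this Cre is not limited to a cell type and was almost, not always fully, complete by the study's methods, and RNA came from whole lung; whether blood was flushed out first is not stated. The study used these lungs to ask how loss of host ATF4 alters the organ before tumour cells reach it.

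APOL proteins share a membrane-associated domain and take their name from human APOL1, a secreted member that travels on high-density lipoprotein and lyses trypanosomes. Most relatives stay inside the cell, where they act on membranes. Several human and mouse members are induced by interferon, the cytokine family that switches on antiviral genes. ATF4 is the transcription factor of the integrated stress response.

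Atf4 itself fell by 1.29 on the log2 scale in the KO (SE 0.21, adjusted p = 0.0485, limma), and the array labelled WT replicate 1 (6.99) lay closest to the KO lungs. The 8 arrays had medians of 5.21 to 5.29 (log2). KO replicate 3 stood apart by its interferon-stimulated genes: of 41 measured genes on a list of such genes, 40 had their highest signal of all 8 lungs there, against 7.56% of all genes. Differences of the Apol10 and Apol11 genes, of Apol6, Apol9a and Apol9b and of the named interferon-stimulated genes most affected are therefore also given without it. Markers of alveolar type 2 cells, the surfactant-making cells of the lung, averaged 15.77 to 16.35 in the 8 lungs. The mean of 10 measured platelet markers lay between 8.16 and 10.34 in WT and between 10.62 and 11.76 in KO lungs.

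The promoters are shown first, because those of Apol11b, Apol11a and Apol10a, the genes with the largest differences, are closely related. RefSeq start sites in the GRCm38.p6 assembly gave windows of 250 bases before to 50 after the start for 9 of the 10 genes. The upstream part of the Apol11b window is printed whole, 5′ to 3′ on the minus strand at chr15:77643287-77643536, with a match to the interferon-stimulated response element core in capitals.
Apol11b: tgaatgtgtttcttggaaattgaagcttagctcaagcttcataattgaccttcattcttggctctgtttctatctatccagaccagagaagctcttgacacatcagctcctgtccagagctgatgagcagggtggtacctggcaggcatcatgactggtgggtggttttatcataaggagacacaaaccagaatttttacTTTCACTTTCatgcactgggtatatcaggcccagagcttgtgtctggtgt

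Apol11a and Apol11b were almost the same in this region. Their windows agreed at 298 of 300 positions, and no position before the start differed. With the Apol11b base first and positions counted from 1 at the first base of the window, the differences were G251A and T252C, the first bases after the start. The Apol10a window matched Apol11b in 268 of 301 alignment columns (89.0%). Apol10b aligned poorly over the whole window (47.5% of 354 columns), but held an unbroken run of 32 bases in common with Apol11b. The same 59-base stretch around the core, again in capitals, is set out for these genes. Apol7c is added as a contrast, with a core but a lower mean in KO lungs, a difference that did not pass the test. Apol9a and Apol9b also have the core and did not pass the test, but are not printed.
Apol11b: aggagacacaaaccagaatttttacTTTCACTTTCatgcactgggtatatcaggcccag
Apol11a: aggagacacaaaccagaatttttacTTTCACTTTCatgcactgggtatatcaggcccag
Apol10a: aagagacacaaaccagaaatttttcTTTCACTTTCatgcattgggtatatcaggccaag
Apol10b: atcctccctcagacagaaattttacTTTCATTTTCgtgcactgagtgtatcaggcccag
Apol7c: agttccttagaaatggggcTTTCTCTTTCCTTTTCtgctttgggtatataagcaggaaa

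These stretches lie at chr15:77643303-77643361 (minus strand), chr15:77508194-77508252 (plus), chr15:77476971-77477029 (plus), chr15:77596096-77596154 (minus) and chr15:77533331-77533389 (minus), in the order printed. The Apol10b stretch runs 30 bases past its annotated start. In Apol7c the capitals cover a pair of overlapping matches. The core was searched on both strands as a pair of GAAA half-sites with NN between them, as were the other motifs in their own letters. It was found for 7 of the 9 listed genes with a window (Apol7c, Apol9a, Apol9b, Apol10a, Apol10b, Apol11a and Apol11b) and in 3.44% of all 32851 windows. Apol9a and Apol9b each had a second start, so the 9 genes had 11 windows, and counts of genes and of windows are not alike. A STAT site core, TTCNNNGAA, was found in Apol10a, Apol11a and Apol11b (8.30% of all windows). The core of the C/EBP-ATF response element, TGATGNAA, was found for 0 of the 9 genes (3.97% of all windows), and a PU.1 core, GAGGAA, in Apol10b alone (28.3%). Related windows are copies of one another and do not count as separate sites.

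Apol11b was close to the median signal of the array in every WT lung and far above it in every KO lung. It read 5.24, 5.23, 5.26 and 5.54 (log2) in WT replicates 1 to 4 and 9.30, 8.27, 10.04 and 7.82 in KO replicates 1 to 4. The lowest KO lung lay 2.29 above the highest WT lung. The mean was 5.32 ± 0.15 in WT and 8.86 ± 1.00 in KO lungs (SD, n = 4), a difference of 3.54 (SE 0.42) or 11.7-fold, which 7 genes of 30176 reached, Apol11b included. The KO lungs thus spread over more than 2 log2 units while the WT lungs stayed together. Without KO replicate 3 the difference was 3.15, and without WT replicate 1 it was 3.52.

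**Figure D1:**
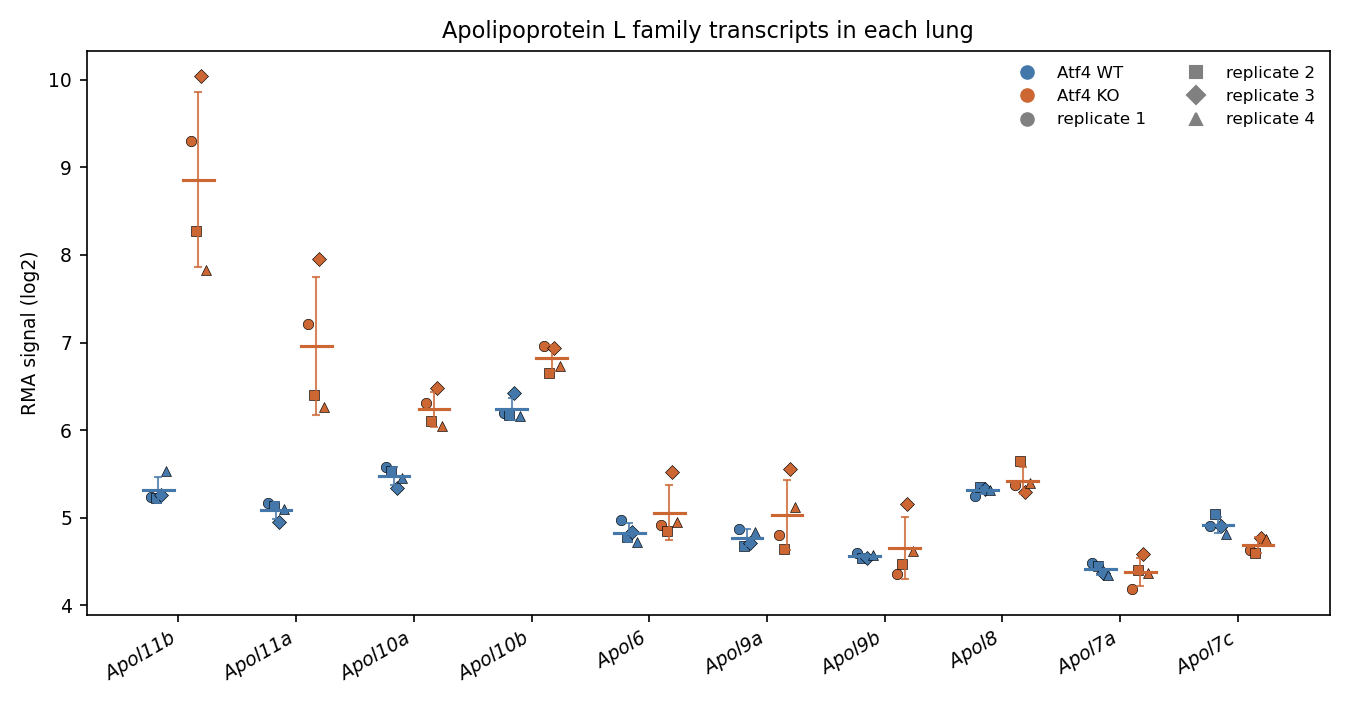
RMA signal (log2, vertical axis) of the 10 Apol genes in each lung, WT in blue and KO in orange, with 1 symbol shape per replicate number, the group mean as a line and its SD as a bar (n = 4 per group). Apol11b, Apol11a, Apol10a and Apol10b are separated by genotype, whereas Apol6, Apol9a and Apol9b overlap and are highest in KO replicate 3.

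Apol11a, the nearest relative of Apol11b by promoter, had the next largest difference in the family. It read 5.17, 5.13, 4.95 and 5.10 in WT replicates 1 to 4 and 7.21, 6.40, 7.96 and 6.26 in KO replicates 1 to 4. The groups were 1.10 apart, and the KO lungs fell in the same order as for Apol11b, with replicate 3 highest, then 1, 2 and 4. The difference was 1.87 (SE 0.33, 3.66-fold), with an adjusted p of 0.0624 by limma over all clusters, so it missed the threshold of 0.05. Without KO replicate 3 it was 1.54 (adjusted p = 0.0529). Among the 8 fits that left out 1 lung, adjusted p lay between 0.0467 and 0.191. The Apol11a difference was 52.8% of that of Apol11b on the log2 scale. Near-identical genes can share probes, and the probe sequences were not analysed here, so how far each cluster reads its own gene was not tested.

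Apol10a, which has the next most similar promoter, rose by less. It read 5.58, 5.53, 5.34 and 5.46 in WT replicates 1 to 4 and 6.32, 6.11, 6.48 and 6.05 in KO replicates 1 to 4. The order of the KO lungs was again 3, 1, 2 and 4, an order that 3.53% of all genes had. The rise was 0.77 (SE 0.10, 1.70-fold, adjusted p = 0.0315, limma). Without KO replicate 3 the difference was 0.68 (adjusted p = 0.0513), and the call also ended without WT replicate 2, 3 or 4 or KO replicate 1 or 2 (adjusted p 0.0633 to 0.124).

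Apol10b separated by genotype as well. It read 6.19, 6.18, 6.42 and 6.16 in WT replicates 1 to 4 and 6.96, 6.65, 6.93 and 6.74 in KO replicates 1 to 4. All KO lungs were above all WT lungs, by 0.23, and replicates 1 and 3 were again the highest. The difference was 0.58 (SE 0.09, adjusted p = 0.0478, limma), and its fold of 1.4996 fell just below the minimum of 1.5, so it was not called. Without KO replicate 3 it was 0.55 (adjusted p = 0.109). Each fit without 1 lung gave an adjusted p over 0.05, from 0.0577 to 0.153.

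Of the 9 relatives of Apol11b, Apol10a was thus the 1 past an adjusted p of 0.05 and a 1.5-fold change, where 0.276% of all clusters were called, 0.229% higher and 0.0470% lower. With 1 cluster per gene, as for the members, 0.467% of 30176 genes were called. All KO lungs lay above all WT lungs for 4 members (2.83% of all clusters) and below them for 1, Apol7c (4.41%), so that 5 of 10 did not overlap (7.24% of all clusters). The members were selected on this comparison, so these shares are given only as a scale.

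**Figure D2:**
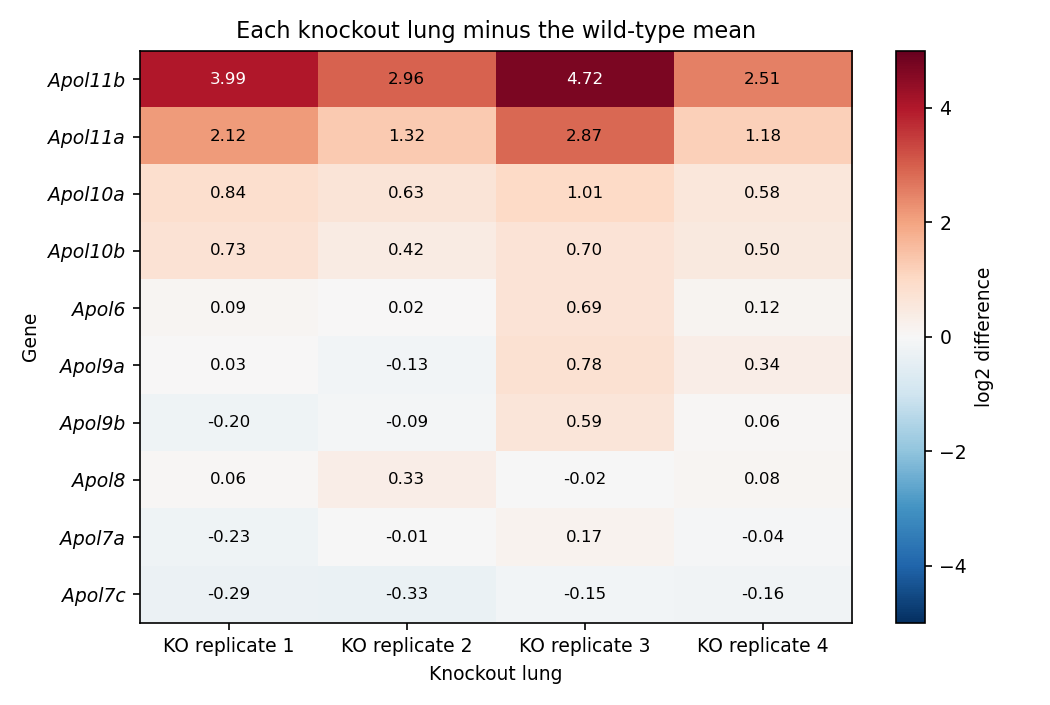
Log2 difference between each KO lung (columns) and the mean of the 4 WT lungs, for each Apol gene (rows), with red for higher and blue for lower. In Apol11b all 4 lungs lie above the WT mean, by 2.51 to 4.72, while Apol6, Apol9a and Apol9b lie 0.59 to 0.78 above it in KO replicate 3 and lie between -0.20 and 0.34 in the others.

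Apol9a and Apol9b, a closely related pair known in mice as interferon-induced genes, behaved differently from the Apol10 and Apol11 genes. Apol9a read 4.68 to 4.87 in WT lungs and 4.81, 4.65, 5.55 and 5.12 in KO replicates 1 to 4. Apol9b read 4.54 to 4.60 in WT lungs and 4.36, 4.47, 5.16 and 4.62 in KO replicates 1 to 4. In both genes replicate 3 was the highest lung of the series, and the groups overlapped, although KO replicate 4 was also above every WT lung for both. Neither passed the test (0.26, SE 0.17, adjusted p = 0.616 for Apol9a and 0.09, SE 0.15, adjusted p = 0.862 for Apol9b, limma). Without KO replicate 3 the difference was 0.08 for Apol9a and -0.08 for Apol9b, with the sign turned.

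Apol6, whose human counterpart promotes cell death when overexpressed, followed the Apol9 pattern. It read 4.98, 4.78, 4.84 and 4.72 in WT replicates 1 to 4 and 4.92, 4.84, 5.52 and 4.95 in KO replicates 1 to 4. One KO lung was high and the rest overlapped with WT. The difference was 0.23 (SE 0.14, adjusted p = 0.579, limma), and 0.08 without KO replicate 3. Of the 10 members, 7 had their highest signal of all 8 lungs in KO replicate 3.

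Apol7c, Apol7a and Apol8 did not pass the test. Apol7c, which acts on phagosomes of mouse dendritic cells, read 4.91, 5.05, 4.91 and 4.82 in WT replicates 1 to 4 and 4.63, 4.59, 4.77 and 4.76 in KO replicates 1 to 4. The groups did not overlap, with a gap of 0.04, and the difference was -0.23 (SE 0.07, adjusted p = 0.255, limma). Apol7a read 4.35 to 4.49 in WT and 4.19 to 4.58 in KO lungs (-0.03, SE 0.09, adjusted p = 0.931), and Apol8 read 5.25 to 5.35 in WT and 5.29 to 5.65 in KO lungs (0.11, SE 0.08, adjusted p = 0.642). In Apol8 the highest lung was KO replicate 2. The median difference over the 9 relatives of Apol11b was 0.23, or 0.08 without KO replicate 3, beside a median of -0.03 over all clusters.

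Many signals of the family lay near the middle of the array. WT means ran from 4.41 to 6.24, and 5 of the 10 members had a mean over the 8 lungs above the median cluster (5.25). Detection calls were not analysed here, so it is not known which members were above background in WT lungs. Apol7b, Apol7d and Apol7e, measured outside the list, differed by 0.05, 0.01 and 0.09 (adjusted p 0.899, 0.973 and 0.899, limma), and their groups overlapped.

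Along chromosome 15, by the gene order of GRCm38.p6, the genes with the largest differences did not form an unbroken run. Apol10a and Apol11a lie side by side, then come Apol7c, Apol10b and Apol11b. Rbfox2, a splicing factor, Apol7b and Apol7e are the other measured protein-coding genes inside the block, and none of them passed the test. Of the 10 measured protein-coding genes next to the block, 5 on each side, 0 were called and 1, 1110038F14Rik (-0.18, adjusted p = 0.364, limma), had an unadjusted p under 0.05. Their differences lay between -0.18 and 0.06. Between the end of the block and Atf4 lie 58 measured protein-coding genes. None was called, and 15 of them (25.9%) had an unadjusted p under 0.05, against 14.6% of all protein-coding genes. The part that linkage to the targeted allele plays was not tested.

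**Figure D3:**
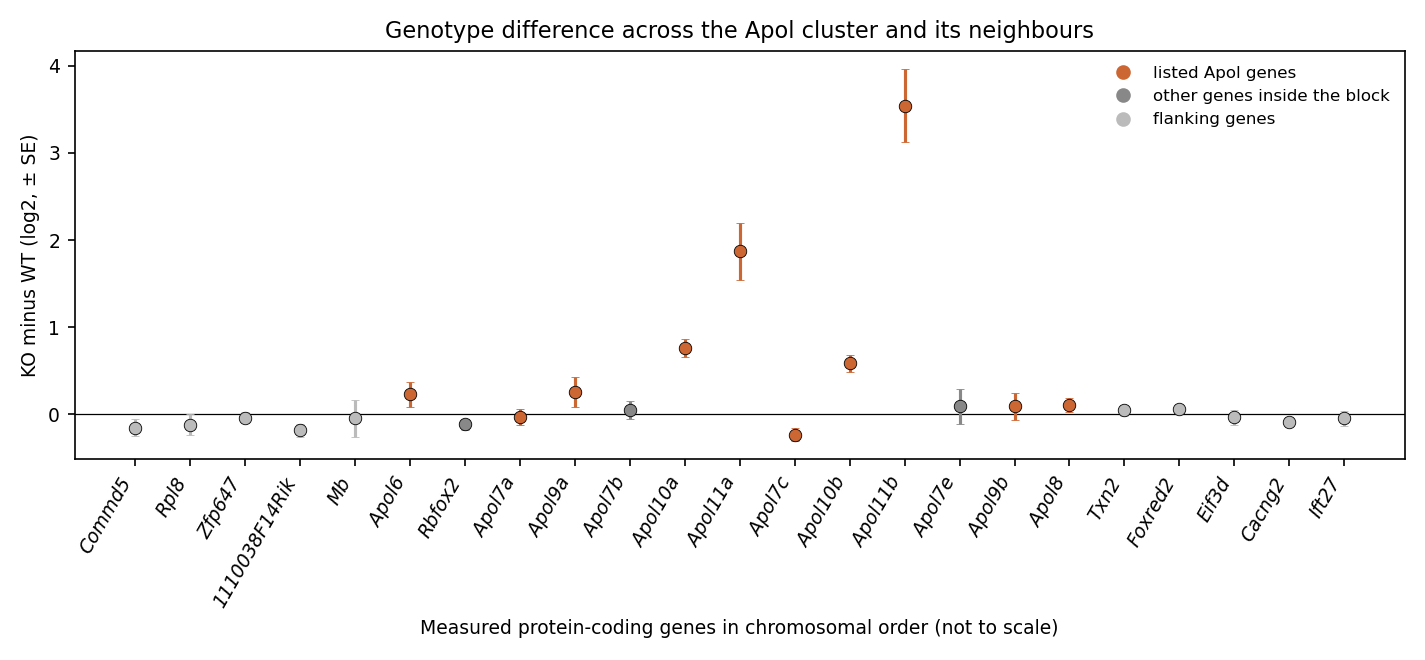
Difference between KO and WT (log2, points, with the SE as bars) for measured protein-coding genes in chromosomal order, Apol members in orange, other genes of the block in dark grey and 5 flanking genes on each side in light grey. The flanking genes lie between -0.18 and 0.06, and the points of Apol10a, Apol11a, Apol10b and Apol11b lie between 0.58 and 3.54.

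Sex, a contrast that played no part in the choice of the family, separated no member. In a fit with genotype and sex, the difference of females from males lay between -0.46 (Apol11a, SE 0.37) and 0.16 (Apol8, SE 0.08), and 8 of 10 members were lower in females. None had an adjusted p under 0.9998 (limma), and 0 of 10 had an unadjusted p under 0.05, against 4.68% of all clusters. At the thresholds used for genotype, 7 clusters (0.0106%) were called for sex. There were 2 females, so differences of this size could not be resolved.

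Genes whose profile over the 8 lungs was most like that of Apol11b included known genes of red cells and platelets. Likeness was the root mean square difference of log2 values after each gene was centred on its own mean, over 30175 other genes. The values were not scaled, so only genes with a genotype difference near that of Apol11b (3.54) could rank high. The 6 genes named here differed by 2.96 to 3.70, so this ranking is not independent of the comparison that picked the family. The closest was 4930542N06Rik (distance 0.29), followed by Slc4a1, the band 3 anion exchanger of red cells (0.38), Slc6a4, the serotonin transporter that loads platelets (0.39), F2rl2, a thrombin receptor of mouse platelets (0.55), Ache, acetylcholinesterase (0.56), and Rsad2, the antiviral enzyme viperin (0.58). Slc4a1 read 5.57 to 5.87 in WT lungs and 10.22, 9.08, 10.82 and 7.47 in KO replicates 1 to 4, the same order as in Apol11b. Apol11a ranked 20, Apol10a 153 and Apol10b 321 in this order.

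When each gene was centred within its genotype, so that only differences among lungs of a genotype counted, Apol11a was the closest of 1493 genes with enough spread (distance 0.19). Then came 4930542N06Rik (0.26), Irgm1, an interferon-inducible GTPase of cell-autonomous immunity (0.30), Gstt1, a glutathione transferase (0.31), D17H6S56E-5 (0.32) and Cd274, the immune checkpoint ligand PD-L1 (0.32). No relative other than Apol11a had enough spread to be ranked. Their within-genotype SDs were 0.09 to 0.29, against 0.56 for Apol11a and 0.72 for Apol11b. The spread of Apol11a lay in the KO lungs (SD 0.78, against 0.10 in WT). Irgm1 read 8.63 to 9.24 in WT lungs and 9.48, 8.86, 10.66 and 8.83 in KO replicates 1 to 4. Its KO lungs fell in the same order as for Apol11b, but KO replicates 2 and 4 lay below the highest WT lung. Its groups thus overlapped and it did not pass the test (0.63, SE 0.37, adjusted p = 0.554, limma). The Irgm1 difference was 0.23 without KO replicate 3 (adjusted p = 0.753).

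Interferon-stimulated genes were looked at as a list because several Apol genes belong to that response. Of 41 measured genes, Oas3, a sensor of double-stranded RNA, was called, and 0 were called lower, against 0.467% of all genes called in either direction. At an unadjusted p under 0.05, 8 were higher and 0 lower, against 13.5% of all genes in either direction, and 37 of the 41 had a higher mean in KO lungs. These counts include KO replicate 3, where 40 of the 41 were highest of all 8 lungs, and the 37 was not recounted without it. Oas3 averaged 4.96 ± 0.039 in WT lungs (SD, n = 4) and 5.58, 5.81, 5.92 and 5.51 in KO replicates 1 to 4, a rise of 0.75 (SE 0.09, adjusted p = 0.0232, limma), and all 4 KO lungs lay above all WT lungs. The rise was 0.67 without KO replicate 3 (adjusted p = 0.0389). Rsad2 read 6.56 to 7.07 in WT and 10.62, 8.67, 12.52 and 9.98 in KO replicates 1 to 4, with a difference of 3.66 (SE 0.66, adjusted p = 0.0706), or 2.96 without KO replicate 3 (adjusted p = 0.0514). Trim30a, an interferon-inducible TRIM protein, differed by 0.68 (adjusted p = 0.160), or 0.60 without KO replicate 3 (adjusted p = 0.279, limma).

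Most of the list was highest in 1 lung. Its mean signal was 8.35, 8.12, 8.60 and 8.37 in WT replicates 1 to 4 and 8.69, 8.34, 9.81 and 8.53 in KO replicates 1 to 4. KO replicate 3 lay apart, KO replicate 1 was just above the highest WT lung, and KO replicates 2 and 4 were within the WT range. The median difference over the list was 0.35 with all lungs and 0.06 without KO replicate 3, beside -0.03 over all clusters. Apol6, Apol9a and Apol9b were likewise highest in KO replicate 3. Apol11b, Apol11a, Apol10a and Apol10b were above every WT lung in all KO lungs. So were 7 of the 41 listed genes (Oas3, Oasl1, Oasl2, Rsad2, Gbp7, Parp14 and Trim30a), against 2.83% of all clusters. The gap between the groups ran from 0.004 for Oasl1 to 1.60 for Rsad2. Gbp7, a guanylate-binding protein, differed by 1.19 (adjusted p = 0.180) and Oasl2, an oligoadenylate synthetase-like protein, by 1.09 (adjusted p = 0.166, limma). Apart from Oas3, Rsad2 and Trim30a, these genes are named because of their separation. What the interferon-stimulated genes of KO replicate 3 add to the Apol values was not tested.

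No gene was called in lists of related function. Of 17 NF-κB target genes 0 were called (median 0.07), with 3 higher and 2 lower at an unadjusted p under 0.05 (limma), against 13.5% of all genes in either direction. Tnfaip2, a TNF-induced gene, read 7.34 to 7.55 in WT and 7.96 to 8.54 in KO lungs (0.73, adjusted p = 0.0581, limma). Tnfaip3, which restrains NF-κB, differed by 0.27 (adjusted p = 0.245) and Vcam1, an adhesion molecule, by -0.63 (adjusted p = 0.253). Of 13 apolipoproteins of plasma lipoproteins, which are unrelated to APOL proteins by sequence, 0 were called, 1 was lower at an unadjusted p under 0.05 and the median difference was -0.02. Apoe, a ligand for lipoprotein receptors, differed by -0.27 (adjusted p = 0.203), Apoc1 by -0.15 and Apom by 0.09. Apold1, an endothelial gene with an apolipoprotein L domain, averaged 6.21 ± 0.21 in WT and 6.70 ± 0.23 in KO lungs (SD, n = 4), which overlapped (0.49, SE 0.14, adjusted p = 0.205).

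Markers of several blood cells moved with genotype in the same lungs. In whole tissue, more cells of a type and more RNA per cell cannot be told apart. All 10 measured platelet markers had higher means in the KO (median 2.42), 3 of them called, Itgb3, Tubb1 and Itga2b, where 0.467% of all genes were called. The platelet mean was 11.76, 11.51, 11.49 and 10.62 in KO replicates 1 to 4, and the highest WT lung was replicate 4 (10.34), which was also the highest WT lung for Apol11b. The order of the KO lungs was not the same. Both were lowest in KO replicate 4, but the platelet mean was highest in KO replicate 1 and Apol11b in KO replicate 3. Of 5 erythroid markers, Alas2, an enzyme of haem synthesis, was called (2.93, adjusted p = 0.0410, limma), and Slc4a1 and Epb42 differed by 3.70 and 0.63 (adjusted p 0.0501 and 0.0795). The other markers of this list, Hemgn and Klf1, both expressed in red cell precursors, differed by 0.10 (adjusted p = 0.701, groups overlapping) and -0.11 (adjusted p = 0.512, all KO lungs below all WT lungs), and the list median was 0.63. The erythroid mean was at most 6.21 in WT lungs and 7.74, 7.20, 8.02 and 7.18 in KO replicates 1 to 4, the order of Apol11b. Slc4a1 and Epb42 had this order, but the other markers of the list did not. Alas2 was highest in KO replicate 4, where Apol11b was lowest.

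All 12 neutrophil markers had higher means (median 2.22, 0 called). Of these, 9 had an unadjusted p under 0.05 (limma), against 13.5% of all genes in either direction. Csf3r differed by 3.16, S100a9 by 2.96 and Retnlg by 3.72. Camp, Ltf and Ngp differed by 0.05, 0.46 and 1.01, and their groups overlapped, as did those of Retnlg. The list mean was 10.33, 11.39, 8.86 and 10.17 in KO replicates 1 to 4. It was lowest in replicate 3, where Apol11b was highest, although Ltf and Lcn2 were highest among KO lungs there. Conventional dendritic cell markers had a median difference of -0.60 (0 of 9 called, 5 lower at an unadjusted p under 0.05), with Cd209a at -0.88, Flt3 at -0.60 and Ccl17 at -1.22. The part of blood and dendritic cells in the Apol differences was not tested.

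**Figure D4:**
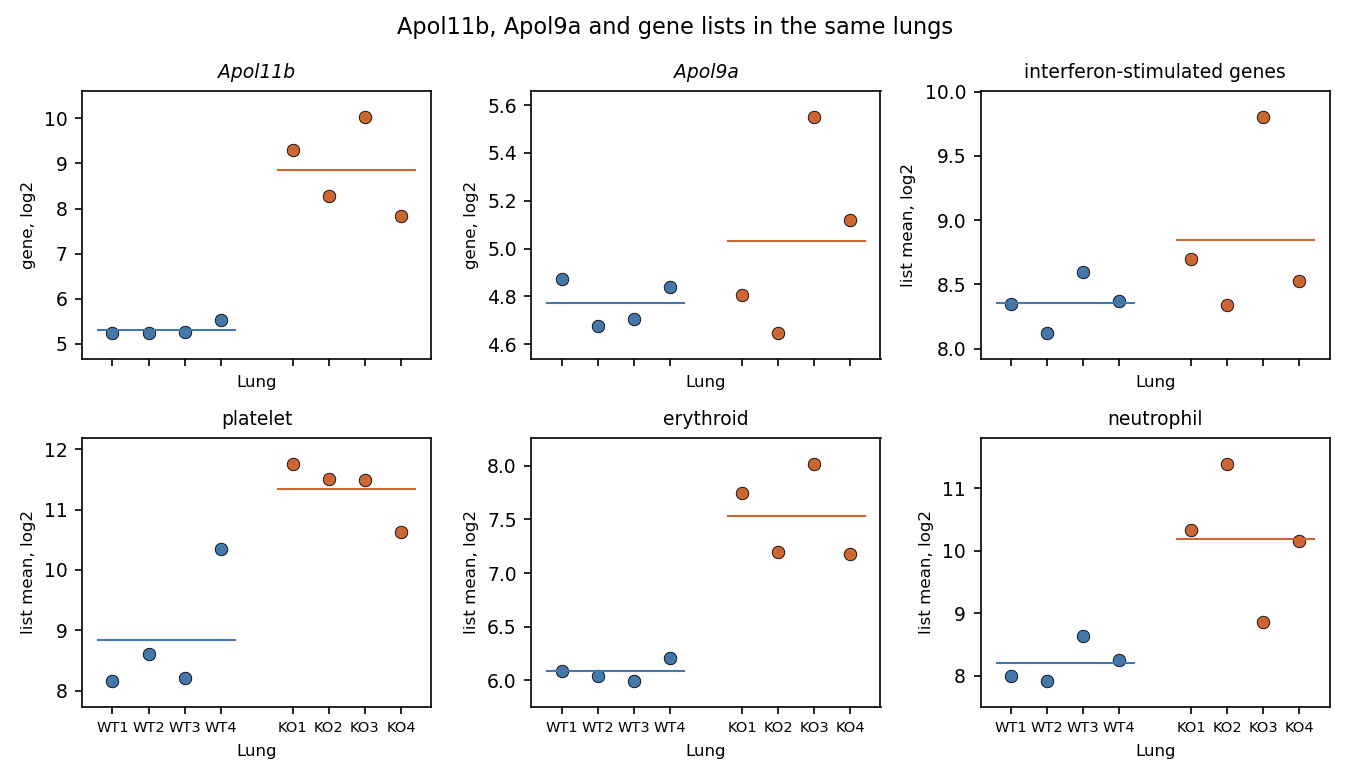
Signal (log2) in each lung, WT in blue and KO in orange with group means as lines, for Apol11b, Apol9a and the mean of 4 gene lists, each panel on its own vertical scale that does not start at 0. KO replicate 3 is highest for Apol11b (10.04), Apol9a (5.55) and the interferon-stimulated genes (9.81) and lowest among KO lungs for the neutrophil list (8.86).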

How the data were processed

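Total RNA from 8 whole lungs was amplified, biotin-labelled and hybridised to Clariom D mouse arrays. The log2 values deposited by the authors were made by RMA, robust multi-array averaging, in the array maker's console software at its defaults; RMA corrects background, quantile-normalises arrays and summarises probes, so a shift shared by most transcripts would not show. No genome build was named for the arrays. Symbols came from the platform table, updated through gene identifiers to GRCm38.p6: 30638 clusters had 1 symbol, 2176 several and 33142 none. The cluster with the highest mean stood for a gene.

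A linear model of genotype was fitted to all 65956 clusters in limma 3.58.1 (R 4.3.3), without covariate or filter, and moderated two-sided p-values were adjusted by Benjamini-Hochberg. A call needed an adjusted p no higher than 0.05 with more than a 1.5-fold change, as the study's methods set them. Each array was taken as 1 animal, and the number of arrays limits the precision. Promoter windows were aligned globally with Biopython 1.88. Members, gene lists and tests were chosen with earlier results of these data known. Named genes were all members, other measured Apol genes, 5 flanking genes a side, the 6 genes most like Apol11b by each measure and the 3 with the smallest p of each pathway, platelet, erythroid, neutrophil and dendritic list. Alternatives were other normalisations, variance models, filters, thresholds, sex, the replicate block, an ordinary t-test and each array left out. The study's methods name a t-test for group comparisons in general, not for the array calls.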

Additional observations from a re-analysis of the deposited data

Results flagged for a closer look

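A lung far from the other 3 of its group was found in 3 of the 26 groups of 4 values screened (13 Apol genes in each genotype), where chance flags about 1 group in 20. Apol6 in KO replicate 3 (5.52) lay above the other KO lungs, and its gap to the nearest was 0.842 of the group's range. Apol10b in WT replicate 3 (6.42), a female, lay above the other WT lungs (0.863). Apol11b in WT replicate 4 (5.54) lay above the other WT lungs (0.902), the same lung that had the highest platelet mean in WT (10.34). Among KO lungs the platelet mean was highest in replicate 1 and Apol11b in replicate 3, and both were lowest in replicate 4.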

How the results depend on the processing

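The Apol11b difference kept its direction and moved by less than the spread between lungs in all 17 alternatives, and lay between 3.15 and 3.89 with 1 lung left out. The family was picked on this difference and the groups lay 2.29 apart, so leaving out 1 lung could not turn its sign. These alternatives are therefore no independent check of Apol11b. The count of called members, which includes Apol11b although its choice fixed that call, was 2. It was 0 with the replicate block, with males only and by an ordinary t-test, and ranged from 0 to 3 with 1 lung left out. Oas3, Rsad2, Trim30a and Irgm1 without KO replicate 3 were added after seeing the data, and none changed its call. Called interferon-stimulated genes numbered 1; the count was 0 under the same 3 settings, 2 when adjusted p could reach 0.10, and 0 to 1 with 1 lung left out. The 9 relatives of Apol11b had a median of 0.08 to 0.30 with 1 lung left out. It was 0.67 over the 4 relatives whose mean over all 8 lungs lies above the median signal (5.25), where fewer genes were tested. That filter favours genes that are high in KO lungs. Apol11a, with means of 5.09 in WT and 6.96 in KO lungs, passed it only through the KO lungs, so 0.67 is no independent check. Called members by sex stayed at 0 in all 16 alternatives. With 1 lung left out, Apol7a ranged from -0.095 to 0.037 (positive without KO replicate 1) and Apol9b from -0.076 to 0.19 (negative without KO replicate 3). Apol10a lost its call in 9 of 20 alternatives, 6 of them with 1 lung left out. Apol10b passed at any fold and with cyclic loess (0.62, adjusted p = 0.0351), and Apol11a with 1 cluster per gene (adjusted p = 0.0476), without KO replicate 4 (0.0467) and with the limit of 0.10, all by limma. The cause was not tested. Over all clusters the calls numbered 182, 0 by the replicate block or an ordinary t-test, 4 with males only, 315 with the limit of 0.10 and 8 to 266 with 1 lung left out. Lungs with the same replicate number did not deviate together over all clusters (correlations of -0.19 to 0.06). These correlations gave no sign that the numbers pair the lungs, but they cannot exclude it. No member had another cluster to compare.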
